A study of Mus musculus with 15 samples.

Results

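The 10 genes described here code for proteins with which macrophages recognize and take up dying cells or scavenge ligands from their surroundings: Mertk, Axl, Gas6, Pros1, Timd4, Mfge8, Stab1, Cd163, Msr1 and Marco. They were chosen by name and make up 10 of the 53465 genes in the deposited count matrix. The data are RNA-seq of mouse bone marrow-derived macrophages (BMDMs), grown for 7 days in DMEM with 10% FBS and 20 ng/ml M-CSF, the growth factor that drives macrophage differentiation and that every group including the control received. BMDMs were then left without further cytokine (control) or treated for 24 h with IL-4 (10 ng/ml), with IL-4 (10 ng/ml) plus IL-6 (40 ng/ml), with IL-13 (40 ng/ml), or with IL-13 (40 ng/ml) plus IL-6 (40 ng/ml). Each of the 5 groups had 3 replicate libraries. The study asked how IL-6 modifies the alternative activation program that IL-4 and IL-13 induce. No group with IL-6 alone was analysed here, so each effect of IL-6 was measured on top of IL-4 or IL-13. The methods on RNA-seq name no genotype, age or sex of the mice. The labels do not say whether the replicates came from separate mice or cultures. The study states for its data as a whole that they come from independent experiments, and it calls its RNA-seq samples biological replicates, without saying what the 3 libraries of a group were. The p-values measure the spread between these libraries. It was estimated over all 5 groups together and not only from the groups compared.

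Removal of apoptotic cells, or efferocytosis, begins when phosphatidylserine on the dying cell is recognized by the phagocyte, either by receptors that bind the lipid themselves or through soluble bridging proteins. MERTK and AXL are receptor tyrosine kinases of the TAM family, whose ligands GAS6 and protein S (Pros1) bridge the receptor to phosphatidylserine. TIM-4 (Timd4) and stabilin-1 (Stab1) bind phosphatidylserine directly, and MFG-E8 links it to alpha-v integrins. CD163 takes up haemoglobin-haptoglobin complexes, while MSR1 (SR-A1) and MARCO are class A scavenger receptors that bind modified lipoproteins and bacteria. These receptors are widely used to describe resident and alternatively activated macrophages.

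Libraries held between 17001352 and 18918686 counted reads. The biological coefficient of variation, the spread between replicates beyond counting noise, was 4.48% in control, 4.54% in IL-4, 14.8% in IL-4/IL-6, 10.9% in IL-13 and 7.38% in IL-13/IL-6. IL-4/IL-6 replicate 2 stood furthest from its group, with a median absolute log2 difference of 0.27 from the others, against 0.09 to 0.22 for the other 14 libraries. Calls of the 10 genes that were lost or gained without it are given both ways. The IL-6 target Socs3 rose with IL-6 on top of IL-4 (log2 fold change 6.25 ± 0.18 SE) and of IL-13 (6.39 ± 0.18 SE). The macrophage genes Adgre1 and Csf1r were high in all groups, with Csf1r between 1421 and 2286 normalized CPM (counts scaled to library size with TMM factors) and Adgre1 between 803 and 1460. The summed level of all 8 macrophage markers was 19044 to 21220 normalized CPM in control, 14683 to 15154 in IL-4, 17309 to 20063 in IL-13, 11965 to 13680 in IL-4/IL-6 and 14526 to 15437 in IL-13/IL-6. Tests are edgeR's quasi-likelihood F-test on the counts of all 15 libraries, with Benjamini-Hochberg adjustment over the 13938 genes that passed a filter on low counts. A gene rose or fell where the edgeR adjusted p was under 0.05. Of the 8 macrophage markers, 2 rose and 4 fell with IL-4, where 32.1% of all tested genes rose and 35.9% fell, and 4 rose and 2 fell with IL-13, where 29.0% rose and 31.1% fell. With IL-6, 3 rose and 5 fell on top of IL-4, where 20.7% of all tested genes rose and 18.7% fell, and 4 rose and 2 fell on top of IL-13, where 12.1% rose and 13.5% fell. Their part in the results below was not tested.

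Of the 10 genes, Timd4 did not pass the filter, and Marco passed it only through its control libraries and is left out of the counts and medians here. Among the other 8, IL-4 alone lowered Mertk, Axl, Pros1, Mfge8 and Stab1 and raised Cd163 and Msr1. Calls were common in this comparison, since 32.1% of all tested genes rose and 35.9% fell. IL-13 alone lowered the same 5 genes by name and raised Gas6, Cd163 and Msr1, where 29.0% of all genes rose and 31.1% fell. These comparisons share the control libraries, so their directions are not independent. The median log2 fold change of the 8 genes was -1.10 with IL-4 and -0.75 with IL-13, against -0.05 and -0.02 for all tested genes. In bulk RNA, fewer cells that express a gene and less of its RNA per cell cannot be told apart.

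Addition of IL-6 gave another pattern. On top of IL-4 it raised Mertk, Gas6, Pros1, Stab1, Cd163 and Msr1 and lowered Axl and Mfge8, in a comparison where 20.7% of all tested genes rose and 18.7% fell. On top of IL-13 it raised Gas6, Pros1, Stab1, Cd163 and Msr1 and lowered Axl and Mfge8, where 12.1% rose and 13.5% fell. Marco was also called higher on top of IL-13, from few reads and with a call that several alternatives lost, as given with its values. These 2 comparisons share no library. The median log2 fold change of the 8 genes without Marco was 0.62 on top of IL-4 and 0.90 on top of IL-13, beside 0.04 and 0.01 for all tested genes. Among all calls, 52.6% were higher on top of IL-4, a share that was 39.0% with upper-quartile scaling and 38.0% with scaling to library totals. On top of IL-13 it was 47.3%, and 35.3% with library totals. No gene named in this paragraph changed direction under these scalings.

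**Figure D1:**
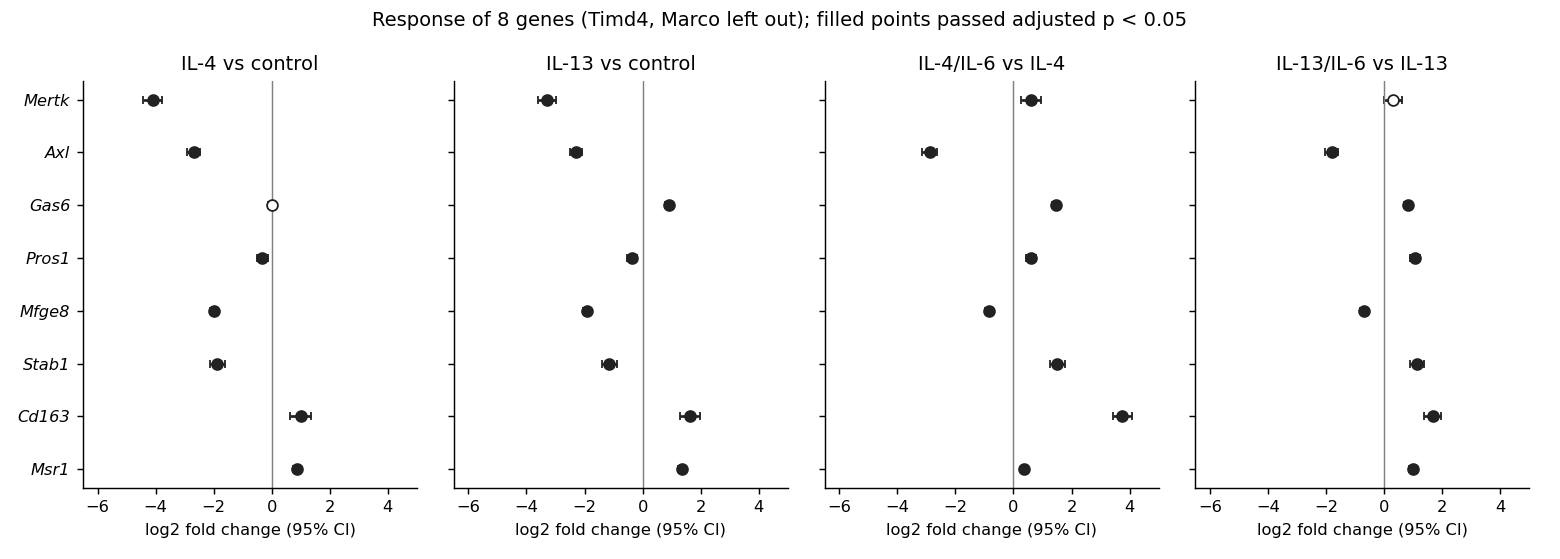
Log2 fold change with its 95% confidence interval (x axis) of the 8 genes without Timd4 and Marco (y axis) in 4 comparisons, one panel each, n = 3 libraries per group, with filled points for an edgeR adjusted p under 0.05. Mertk, Axl, Mfge8 and Stab1 lie left of 0 for IL-4 and IL-13 against control, while Gas6, Pros1, Stab1 and Cd163 lie right of 0 when IL-6 was added and Axl and Mfge8 lie left.

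The control libraries also differed from all others in genes of other marrow cells. The summed level of 9 granulocyte markers was 486 to 575 normalized CPM in control and 1.61 to 2.68 in the 12 cytokine-treated libraries, where Ly6g had no count. The 6 markers of mast cells, basophils and eosinophils went from a sum of 25.2 to 29.9 in control to at most 0.44 in treated libraries where Epx, the eosinophil peroxidase, had no count. The 6 B cell markers summed to 11.3 to 12.5 in control and 0.57 to 1.69 in treated libraries, and the 6 dendritic cell markers to 23.4 to 26.8 and 0.28 to 1.18. In each treated group, 4 to 7 of the granulocyte markers, 2 to 5 of the B cell markers, 2 to 5 of the dendritic cell markers and 5 to 6 of the mast cell, basophil and eosinophil markers had at most 3 counts in every library, too few for a test of a response to IL-6. With IL-6, 20.7% of all tested genes rose and 18.7% fell on top of IL-4, and 12.1% and 13.5% on top of IL-13. Of 5 megakaryocyte and platelet markers, Pf4 and Ppbp were higher and Gp1ba lower with IL-6 in each setting. Their sum was 71.4 to 76.7 with IL-4 alone and 175 to 314 after IL-6 was added, 73.8 to 90.6 with IL-13 alone and 349 to 422 after IL-6 was added, and 380 to 426 in control. Pf4 carried this rise, with means of 97.4 normalized CPM in control, 68.7 in IL-4, 75.5 in IL-13, 235 in IL-4/IL-6 and 390 in IL-13/IL-6, while Ppbp (166 in control and at most 4.16 in the treated groups), Itga2b (114 and at most 1.72) and Gp1ba (18.0 and at most 1.51) stayed far below control. Of the 5 tested stromal and endothelial markers 1 rose in each setting, beside 20.7% and 12.1% of all tested genes. All 7 listed markers of this kind summed to 7.42 to 12.6 before and 11.0 to 17.1 after the addition to IL-4. For IL-13 the sums were 18.8 to 23.9 before and 40.0 to 41.1 after, beside 27.7 to 37.4 in control. Col1a1 and Col3a1 had no count in any treated library. The part of these markers' cells in the responses to IL-6 was not tested. The part of other marrow cells in the differences from control was not tested, and it touches every comparison with control given here, including those of Marco and Timd4.

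Mertk (ENSMUSG00000014361, chr2:128698956-128802894 on GRCm38, plus strand) was at 132, 139 and 156 normalized CPM in the control libraries. In IL-4 it was at 9.37, 8.30 and 7.15, and in IL-13 at 11.2, 16.0 and 16.4. With IL-6 added, it was at 13.9, 9.61 and 14.6 on top of IL-4 and at 16.7, 18.8 and 18.3 on top of IL-13. All 12 treated libraries lay below all control libraries, by a wide margin. IL-4 lowered Mertk 17.2-fold (log2 fold change -4.10 ± 0.16 SE, edgeR adjusted p = 6.44e-13) and IL-13 9.80-fold (-3.29 ± 0.15 SE, adjusted p = 7.42e-12). IL-6 raised it 1.53-fold on top of IL-4 (0.62 ± 0.16 SE, edgeR adjusted p = 0.00616), and without IL-4/IL-6 replicate 2, the lowest of its group, the log2 fold change was 0.77. On top of IL-13 the difference did not pass the test (0.30 ± 0.15 SE, 95% interval -0.01 to 0.62, edgeR adjusted p = 0.164), although the ranges of the groups did not overlap, and it passed with no filter on low counts (0.32, adjusted p = 0.0307). In IL-4/IL-6, Mertk still stood at 8.90% of its control mean. The only overlapping genes, an antisense RNA and a snoRNA, had at most 4 counts in any library.

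Axl (ENSMUSG00000002602, chr7:25757273-25788705, minus strand), a TAM kinase like Mertk, fell in every step. It was at 282, 321 and 333 normalized CPM in control, at 51.2, 45.9 and 48.2 in IL-4, and at 58.9, 62.8 and 68.8 in IL-13. IL-4/IL-6 libraries held 5.73, 6.36 and 7.60, and IL-13/IL-6 libraries 17.5, 15.6 and 21.1. No pair of groups overlapped, in the order control, IL-13, IL-4, IL-13/IL-6, IL-4/IL-6. IL-4 lowered Axl 6.44-fold (log2 fold change -2.69 ± 0.11 SE, edgeR adjusted p = 8.64e-13), and IL-6 on top of it lowered Axl a further 7.37-fold (-2.88 ± 0.12 SE, adjusted p = 6.14e-12). IL-13 lowered it 4.91-fold (-2.30 ± 0.10 SE, edgeR adjusted p = 7.72e-12) and IL-6 on top of IL-13 3.51-fold (-1.81 ± 0.11 SE, adjusted p = 1.01e-09). The fall with IL-6 was larger beside IL-4 than beside IL-13, with a difference of the log2 fold changes of -1.07 ± 0.17 SE (edgeR adjusted p = 3.85e-04 for the interaction). In IL-4/IL-6, Axl was at 2.1% of its control mean, while Mertk was not lowered by IL-6.

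In the control libraries, GAS6 was the main TAM ligand by transcript, with an FPKM (fragments scaled for gene length and library size) of 72.8 ± 4.11 (SD, n = 3) against 14.0 ± 0.48 for Pros1. Gas6 (ENSMUSG00000031451, chr8:13465374-13494490, minus strand) was at 166, 189 and 178 normalized CPM in control and at 171, 189 and 172 in IL-4, which overlap fully. The log2 fold change with IL-4 was -0.00 with a 95% interval of -0.14 to 0.14 (edgeR adjusted p = 0.994). IL-13 libraries were higher, at 342, 321 and 333, and rose 1.87-fold over control (0.90 ± 0.07 SE, adjusted p = 3.25e-09 by edgeR). IL-13 thus exceeded IL-4 without IL-6 by the same measure, the log2 fold change of IL-4 over IL-13 being -0.90 ± 0.07 SE (edgeR adjusted p = 6.03e-08). With IL-6, Gas6 reached 483, 480 and 519 on top of IL-4 and 611, 575 and 563 on top of IL-13, and all 6 of these libraries lay above the other 9. IL-6 raised it 2.78-fold on top of IL-4 (1.48 ± 0.07 SE, edgeR adjusted p = 1.08e-11) and 1.76-fold on top of IL-13 (0.81 ± 0.06 SE, adjusted p = 3.71e-08), and these responses differed by 0.66 ± 0.09 SE (adjusted p for the interaction 1.47e-04). Tmem255b, which overlaps Gas6 on the opposite strand, had at most 11 counts.

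Pros1 (ENSMUSG00000022912, chr16:62854307-62929346, plus strand), the anticoagulant protein S, moved less. It was at 53.0, 57.4 and 53.7 normalized CPM in control, 45.1, 40.6 and 45.3 in IL-4 and 38.2, 47.7 and 42.0 in IL-13. Each of IL-4 and IL-13 lowered it, by -0.32 ± 0.09 SE (edgeR adjusted p = 0.00288) and -0.36 ± 0.09 SE (adjusted p = 0.00157) on the log2 scale, and the 2 groups overlapped with each other. IL-4/IL-6 libraries held 62.1, 69.3 and 69.0, and IL-13/IL-6 libraries 90.7, 92.5 and 82.0, all above every library without IL-6. IL-6 raised Pros1 1.53-fold on top of IL-4 (0.61 ± 0.09 SE, edgeR adjusted p = 1.52e-05) and 2.07-fold on top of IL-13 (1.05 ± 0.08 SE, adjusted p = 4.30e-08). Unlike Gas6, the rise was larger beside IL-13, with a difference of -0.44 ± 0.12 SE (edgeR adjusted p = 0.0308 for the interaction), but this call was lost when any of 7 single libraries was left out, namely IL-4 replicate 1 or 3, IL-4/IL-6 replicate 1, IL-13 replicate 1 or 3, or IL-13/IL-6 replicate 1 or 2 (adjusted p = 0.0533 to 0.0758), and with only the groups compared (adjusted p = 0.0527).

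Summed over each receptor pair and ligand pair, the FPKM values moved apart. Mertk and Axl together were at 90.9 to 107 FPKM in the control libraries, 11.2 to 12.5 in IL-4, 14.4 to 18.0 in IL-13, 3.12 to 4.76 in IL-4/IL-6 and 7.12 to 8.18 in IL-13/IL-6. Gas6 and Pros1 together were at 82.1 to 91.1 in control, 79.1 to 85.5 in IL-4, 142 to 145 in IL-13, 184 to 216 in IL-4/IL-6 and 234 to 254 in IL-13/IL-6. The ratio of ligand to receptor transcripts was 0.90 in the median control library and 47.2 in the median IL-4/IL-6 library. Axl made up 64.7 to 66.5% of the receptor sum in control and 82.5 to 85.3% in IL-4, but only 26.2 to 36.3% in IL-4/IL-6 and 41.7 to 49.9% in IL-13/IL-6. Of the Mertk and Axl transcripts, Mertk was therefore the more abundant in each IL-6-treated library and the less abundant in each of the other 9, in FPKM. The receptor sums cover Mertk and Axl only and no other receptor of the TAM family. These are transcript levels, and the surface receptors and secreted ligands were not measured here.

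**Figure D2:**
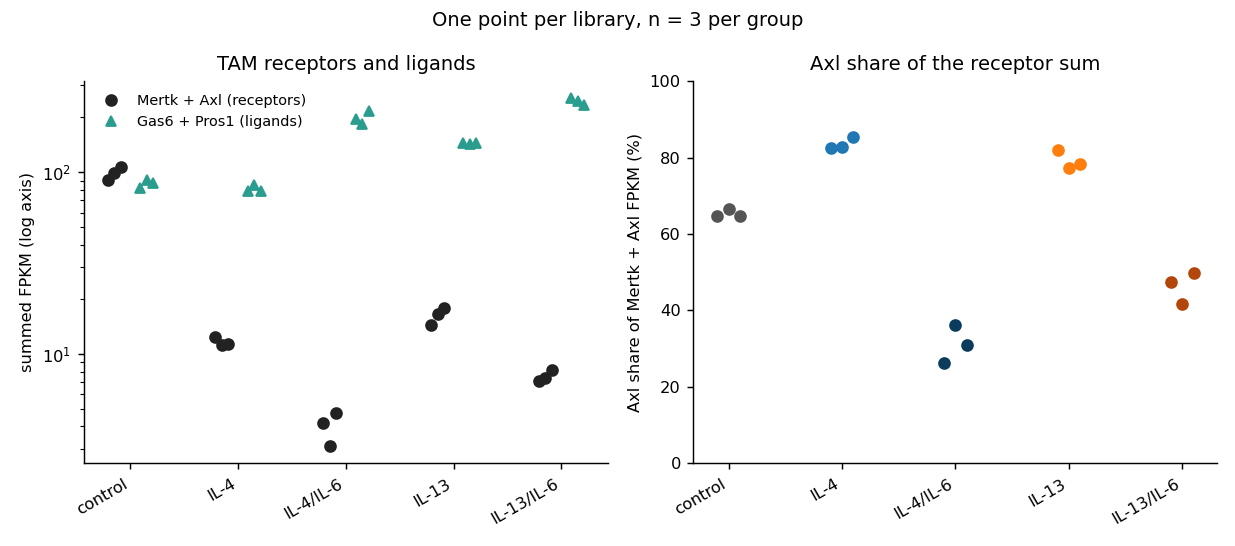
Left, summed FPKM (log axis) of the TAM receptors Mertk and Axl (circles) and of their ligands Gas6 and Pros1 (triangles) in each library, 3 per group; right, the share of Axl in the receptor sum in percent. Receptors fell from at least 90.9 in control to at most 4.76 in IL-4/IL-6 while ligands stayed at or above 79.1 in all groups, and the Axl share was lowest in IL-4/IL-6.

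Timd4 (ENSMUSG00000055546, chr11:46810800-46844332, plus strand) was hardly detected. It had 4, 10 and 10 reads in the control libraries, 4, 0 and 1 in IL-4, 0, 6 and 2 in IL-13, 0, 2 and 1 in IL-4/IL-6 and 0, 0 and 2 in IL-13/IL-6. A count of 0 to 3 in a library is at the limit of detection here. TIM-4 marks several resident macrophage populations, and its transcript was near the limit in all 5 groups of these BMDMs.

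Mfge8 (ENSMUSG00000030605, chr7:79133768-79149060, minus strand), the integrin bridge, was the most abundant of the 10 genes in control at 199 ± 8.39 FPKM (SD, n = 3). It was at 877, 949 and 864 normalized CPM in control, 235, 217 and 226 in IL-4, 254, 224 and 237 in IL-13, 123, 135 and 121 in IL-4/IL-6 and 148, 141 and 153 in IL-13/IL-6. The control libraries lay far above the rest, and IL-4 and IL-13 overlapped with each other. IL-4 lowered Mfge8 3.97-fold (log2 fold change -1.99 ± 0.07 SE, edgeR adjusted p = 1.83e-13) and IL-13 3.76-fold (-1.91 ± 0.07 SE, adjusted p = 5.56e-13). IL-6 lowered it again, 1.79-fold on top of IL-4 (-0.84 ± 0.07 SE, edgeR adjusted p = 1.89e-08) and 1.62-fold on top of IL-13 (-0.69 ± 0.07 SE, adjusted p = 3.62e-07). No difference between these responses was detected (-0.14 with a 95% interval of -0.34 to 0.05, edgeR adjusted p = 0.489). Mfge8 shared its group order with Axl, and in both genes each of the 4 cytokine groups was below control and each IL-6 group below its partner without IL-6.

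Stab1 (ENSMUSG00000042286, chr14:31139013-31168641, minus strand), which takes up acetylated lipoproteins and matrix fragments as well as apoptotic cells, fell with IL-4 or IL-13 and was higher again with IL-6. It was at 1318, 1327 and 1424 normalized CPM in control, 382, 387 and 341 in IL-4 and 530, 638 and 666 in IL-13. In IL-4/IL-6 it was at 1147, 793 and 1211, where replicate 2 was well below the others, and in IL-13/IL-6 at 1269, 1397 and 1345, where the range overlapped that of control and replicate 1 lay below all 3 control libraries. IL-4 lowered Stab1 3.67-fold (-1.87 ± 0.12 SE, edgeR adjusted p = 7.03e-10) and IL-13 2.22-fold (-1.15 ± 0.12 SE, adjusted p = 3.76e-07). IL-6 raised it 2.84-fold on top of IL-4 (1.51 ± 0.12 SE, edgeR adjusted p = 2.40e-08) and 2.19-fold on top of IL-13 (1.13 ± 0.12 SE, adjusted p = 1.43e-06). IL-13/IL-6 did not differ detectably from control (-0.02 with a 95% interval of -0.27 to 0.23, edgeR adjusted p = 0.890), and IL-4/IL-6 was lower than control (-0.37 ± 0.12 SE, adjusted p = 0.0112), a call that was lost with only the groups compared (adjusted p = 0.0502). Without IL-4/IL-6 replicate 2, that last difference was -0.17 (adjusted p = 0.0616 by edgeR), and the response to IL-6 was larger beside IL-4 than beside IL-13 (0.54 ± 0.11 SE, adjusted p = 0.00208), which it was not with all libraries (0.38 ± 0.17 SE, adjusted p = 0.247) but was with no filter on low counts (0.34, adjusted p = 0.0233). Stab1 overlaps Nt5dc2 on the opposite strand, which had up to 2736 counts, and the sources used here do not say whether the counting used strand, so reads in the shared part cannot be told apart.

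Cd163 (ENSMUSG00000008845, chr6:124304656-124330527, plus strand) rose in every step. It was lowest in control, at 6.20, 8.48 and 8.30 normalized CPM, followed by IL-4 at 16.2, 14.9 and 14.6 and IL-13 at 18.96, 27.8 and 24.8. With IL-6 it was at 71.5, 85.4 and 70.4 on top of IL-13 and at 221, 170 and 225 on top of IL-4. None of the 5 groups overlapped. IL-4 raised Cd163 1.99-fold (0.99 ± 0.16 SE, edgeR adjusted p = 4.76e-05) and IL-13 3.12-fold (1.64 ± 0.16 SE, adjusted p = 1.31e-07). Addition of IL-6 raised it a further 13.5-fold beside IL-4 (3.76 ± 0.15 SE, edgeR adjusted p = 2.01e-12) and 3.18-fold beside IL-13 (1.67 ± 0.14 SE, adjusted p = 6.13e-08). The responses to IL-6 differed by 2.09 ± 0.20 SE on the log2 scale (edgeR adjusted p = 3.21e-06 for the interaction), and this call held without IL-4/IL-6 replicate 2 (adjusted p = 6.15e-08). Only 0.416% of all tested genes rose further than Cd163 when IL-6 was added to IL-4. IL-4/IL-6 stood 26.9-fold above control (4.75 ± 0.16 SE, adjusted p = 5.84e-14), and the order of IL-4 and IL-13 turned, since IL-13 was the higher without IL-6 and IL-4/IL-6 the higher with it (1.44 ± 0.13 SE, adjusted p = 2.15e-07).

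Msr1 (ENSMUSG00000025044, chr8:39581685-39642673, minus strand) also rose in every step. It was at 185, 188 and 176 normalized CPM in control, 337, 326 and 336 in IL-4, 455, 497 and 442 in IL-13, 435, 447 and 414 in IL-4/IL-6 and 935, 903 and 916 in IL-13/IL-6. IL-4/IL-6 and IL-13 overlapped, and the other groups were apart. IL-4 raised Msr1 1.82-fold (0.86 ± 0.06 SE, edgeR adjusted p = 8.93e-10) and IL-13 2.54-fold (1.34 ± 0.06 SE, adjusted p = 6.04e-12). IL-6 raised it 1.30-fold on top of IL-4 (0.38 ± 0.06 SE, edgeR adjusted p = 4.61e-05) and 1.98-fold on top of IL-13 (0.98 ± 0.06 SE, adjusted p = 7.16e-10). Here the response to IL-6 was larger beside IL-13, with a difference of -0.61 ± 0.08 SE (edgeR adjusted p = 1.06e-04), the reverse of Cd163.

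Marco (ENSMUSG00000026390, chr1:120474538-120505024, minus strand) was a low transcript in BMDMs, with 106, 127 and 101 reads in control. There were 3, 4 and 2 reads in IL-4, 7, 7 and 7 in IL-13, 3, 4 and 8 in IL-4/IL-6 and 16, 10 and 17 in IL-13/IL-6. Every treated library was far below every control library. Summed and scaled, control held 37.1 times the reads of IL-4 (exact 95% counting interval 19.3 to 81.9), 21.0 times those of IL-4/IL-6 (12.6 to 38.0), 16.1 times those of IL-13 (10.4 to 26.4) and 7.58 times those of IL-13/IL-6 (5.50 to 10.7). These intervals cover counting error only. Since Marco passed the filter on low counts only through the control libraries, these falls are given as reads and not as calls. The rise with IL-6 on top of IL-13 (1.08 ± 0.36 SE, edgeR adjusted p = 0.0362) rested on these few reads and was lost with DESeq2, with no filter on low counts, with the replicate number as a block, and without control replicate 3, any of the 3 IL-13 libraries or IL-13/IL-6 replicate 1 or 3 (adjusted p = 0.0506 to 0.136), and on top of IL-4 no change was detected (0.80 with a 95% interval of -0.31 to 1.90, adjusted p = 0.278). The summed markers of granulocytes, B cells, dendritic cells and mast cells, basophils and eosinophils given above were lower than control in the same 4 groups as Marco.

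**Figure D3:**
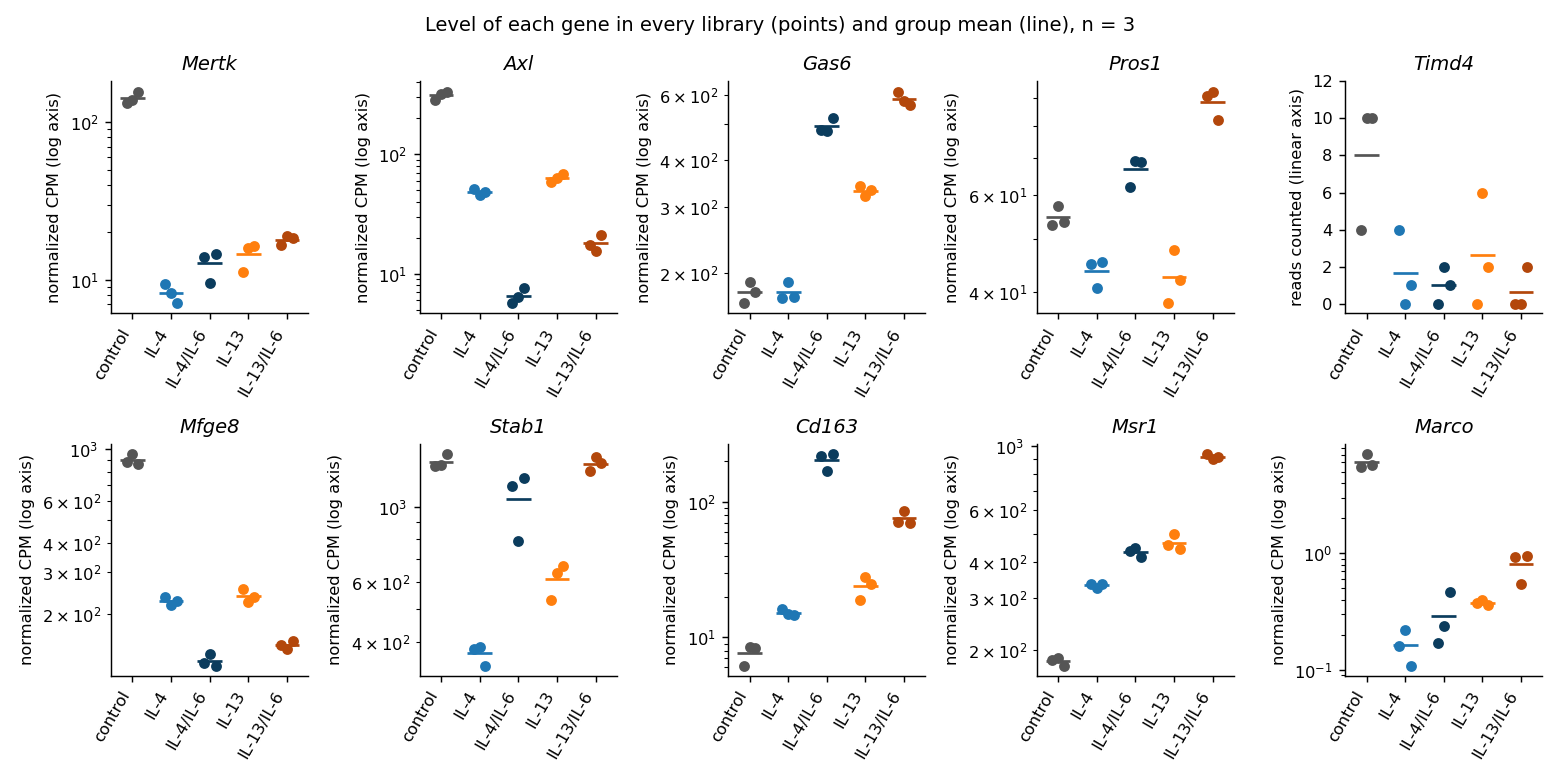
Level of each of the 10 genes (one panel each) in every library (points) with the group mean (line), as normalized CPM on a log axis, and for Timd4 as reads on a linear axis, 3 libraries per group (x axis). Mertk, Axl, Mfge8 and Marco are highest in control, Gas6, Pros1 and Msr1 in IL-13/IL-6 and Cd163 in IL-4/IL-6, and Stab1 is lowest in IL-4.

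On the FPKM scale, which allows genes to be compared, the order of the 10 genes changed with treatment. In control, Mfge8 (199), Stab1 (138), Gas6 (72.8) and Axl (64.7) led, and Cd163 (1.46) was next to last before Timd4. In IL-4/IL-6, Gas6 (183), Stab1 (97.0), Msr1 (64.2) and Cd163 (35.7) led, and Axl (1.23) was above only Marco (0.14) and Timd4. In IL-13/IL-6 the leading genes were Gas6 (224), Msr1 (141), Stab1 (127) and Mfge8 (30.6), with Cd163 at 13.6. Of all genes in the FPKM lists, 37.3 to 39.3% had a higher value than Axl in the IL-4/IL-6 libraries, against 2.44 to 3.01% in control.

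The IL-6 responses beside IL-4 and beside IL-13 could be compared without shared libraries. In this test of the difference, 3.22% of all tested genes were called higher and 4.42% lower, and of the 8 genes without Marco, Gas6 and Cd163 responded more strongly upward beside IL-4, Axl fell more beside IL-4, and Msr1 and Pros1 rose more beside IL-13, with the call of Pros1 lost without any of 7 single libraries or with only the groups compared, as given above. Of all calls 42.2% were higher, and 31.7% with upper-quartile scaling. For Mertk and Mfge8 no difference was detected, nor for Stab1 with all libraries, although Stab1 passed this test without IL-4/IL-6 replicate 2 or with no filter on low counts, as given above. Among the IL-6-treated groups themselves, Cd163 was the higher with IL-4 in the mixture, and the other 7 of these 8 genes were the higher with IL-13 in it, where 15.8% of all tested genes were higher with IL-4 and 15.5% lower. Several of these 7 calls were weak, with edgeR adjusted p of 0.0360 for Stab1, 0.0200 for Mertk and 0.0187 for Mfge8, and those of Stab1 and Mertk were lost without IL-4/IL-6 replicate 2 (adjusted p = 0.111 and 0.0823). They were lost too without IL-13/IL-6 replicate 2 (0.110 and 0.0655) or replicate 3 (0.0846 and 0.0547), and that of Mfge8 without IL-13/IL-6 replicate 3 (0.0655) or IL-4/IL-6 replicate 1 (0.0535). Without IL-6, IL-4 was lower than IL-13 for 6 genes, Mertk, Axl, Gas6, Stab1, Cd163 and Msr1, and higher for none of the 8, where 7.61% of all tested genes were lower and 5.16% higher. The call of Axl (-0.39 ± 0.10 SE, edgeR adjusted p = 0.0172) was lost without IL-4 replicate 2 or 3 or IL-13 replicate 3 (adjusted p = 0.0679 to 0.1001). Pros1 and Mfge8 gave no call there, with adjusted p of 0.827 and 0.488 by edgeR. The doses of IL-4 and IL-13 differed, so these contrasts set 10 ng/ml of IL-4 against 40 ng/ml of IL-13.

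**Figure D4:**
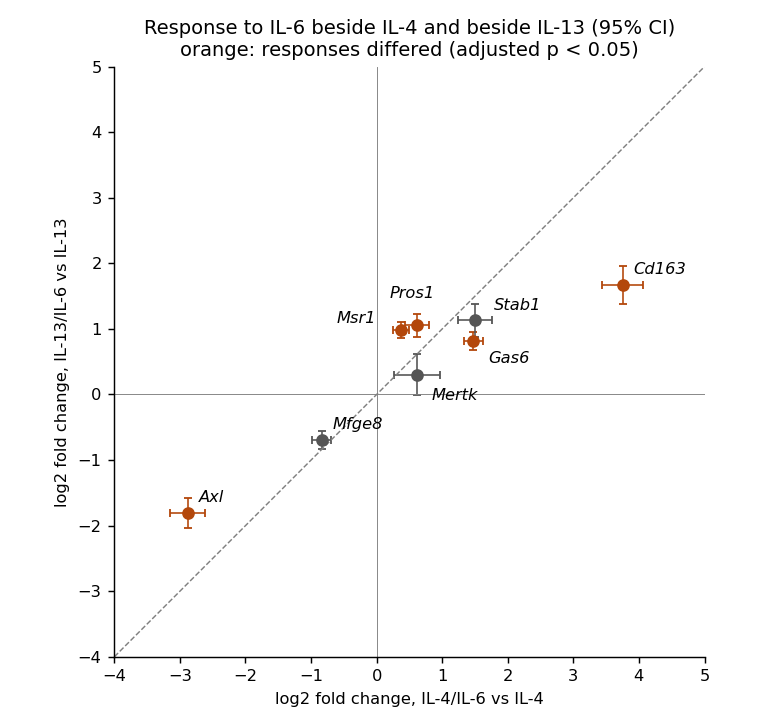
Log2 fold change on addition of IL-6 beside IL-4 (x axis) and beside IL-13 (y axis) of the 8 genes without Timd4 and Marco, with 95% confidence intervals; the dashed line marks equal responses, and orange points are genes whose responses differed (edgeR adjusted p under 0.05). Cd163 (3.76 and 1.67) and Axl (-2.88 and -1.81) lie furthest from 0, and Msr1 and Pros1 lie above the line.

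In a fit with 1 mean per group, the log2 fold changes against control of the groups with IL-6 equal the sum of these steps. They are no separate test of how the cytokines act together. IL-4/IL-6 raised Gas6, Pros1, Cd163 and Msr1 and lowered Mertk, Axl, Mfge8 and Stab1, the last by a call that was lost without IL-4/IL-6 replicate 2 or with only the groups compared, where 35.4% of all tested genes rose and 37.5% fell. IL-13/IL-6 raised the same 4 genes and lowered Mertk, Axl and Mfge8, where 31.9% rose and 32.1% fell. Pros1 was 1.22-fold above control in IL-4/IL-6 (log2 fold change 0.29 ± 0.08 SE, edgeR adjusted p = 0.00565), a call that was lost with scaling to library totals (0.14, adjusted p = 0.153), and 1.62-fold above control in IL-13/IL-6 (0.69 ± 0.08 SE, adjusted p = 1.53e-06). Axl was 47.5-fold below control in IL-4/IL-6 and 17.2-fold in IL-13/IL-6. Msr1 was 2.36-fold above control in IL-4/IL-6 and 5.02-fold in IL-13/IL-6.

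Sequence upstream of the gene starts was taken from RefSeq (GRCm38.p6), which gave a promoter window of 300 bases, 250 before to 50 after the start, for 9 of the 10 genes; Msr1 had no entry. These windows were searched for TTCNNNGAA, the form of DNA site that STAT dimers bind, and for the same ends set 1 base further apart, the wider spacing that STAT6 binds. Each motif reads alike on both strands, and the 2 motifs differ in length so that a stretch may match both only in part. Of 32851 promoter windows, 8.30% held TTCNNNGAA, 6.95% held the wider form and 14.6% held either. Among the 9 genes only Pros1 matched, with one site of each form. The 250 bases before the start are shown for Pros1, the gene with matches, and for Axl and Cd163, which IL-6 moved furthest in opposite directions, with matches in capitals.
Pros1 (chr16:62854057-62854306, plus strand): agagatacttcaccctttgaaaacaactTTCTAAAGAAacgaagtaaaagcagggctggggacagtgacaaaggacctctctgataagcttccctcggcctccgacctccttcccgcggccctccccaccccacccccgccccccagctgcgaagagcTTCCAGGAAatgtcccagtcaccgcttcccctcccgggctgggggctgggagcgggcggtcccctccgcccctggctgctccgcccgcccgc
Axl (chr7:25788734-25788983, minus strand): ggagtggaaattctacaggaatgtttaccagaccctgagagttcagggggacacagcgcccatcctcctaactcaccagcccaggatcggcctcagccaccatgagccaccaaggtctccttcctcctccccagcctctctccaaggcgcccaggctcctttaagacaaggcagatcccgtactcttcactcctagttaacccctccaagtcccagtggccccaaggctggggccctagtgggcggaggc
Cd163 (chr6:124304401-124304650, plus strand): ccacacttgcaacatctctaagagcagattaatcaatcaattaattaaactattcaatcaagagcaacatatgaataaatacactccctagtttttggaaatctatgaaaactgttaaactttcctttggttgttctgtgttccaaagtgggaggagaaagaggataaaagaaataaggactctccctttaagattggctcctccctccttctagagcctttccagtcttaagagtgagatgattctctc
In Pros1 the wider match begins 222 bases and the TTCNNNGAA match 92 bases before the start. The windows of Axl and Cd163 held no match in these 300 bases. The Cd163 window had a GC content of 38.0% and 2 CG dinucleotides, against 60.3% and 6 for Axl and 66.7% and 21 for Pros1. A match is a string of letters, and nothing in these data measured binding of a factor.

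The remaining genes of the same pathways were read from lists drawn up by function. Their counts stand beside the shares of all tested genes, which with IL-4 were 32.1% higher and 35.9% lower and with IL-13 29.0% and 31.1%, and with IL-6 were 20.7% and 18.7% on top of IL-4 and 12.1% and 13.5% on top of IL-13. Of 18 other receptors and bridging proteins of apoptotic cells, 14 could be tested. IL-4 raised 5 and lowered 7 of them (median log2 fold change -0.16), and IL-13 raised 6 and lowered 5 (0.07). Thbs1, the matrix protein thrombospondin 1 that bridges apoptotic cells to CD36 and integrins, had the furthest fall, from a mean of 341 normalized CPM in control to 1.53 in IL-4 and 2.08 in IL-13. Edil3, an integrin-binding bridge for phosphatidylserine, rose with IL-4 (3.00 ± 0.21 SE) and IL-13 (3.15 ± 0.21 SE), while the phosphatidylserine receptor Stab2 fell (-1.97 ± 0.21 and -2.77 ± 0.23 SE). Also lowered were Cd300lf with IL-4 (-2.61 ± 0.14 SE) and the integrin subunit Itgb3 with IL-13 (-2.61 ± 0.10 SE). Past a log2 change of 1 were 7 of these genes with IL-4 and 6 with IL-13. In this and the following lists, at most 4 genes are named per comparison. A gene named for IL-4 or IL-13 only may thus have changed with both. Itgb3 was 1.15 ± 0.10 SE higher with IL-4 than with IL-13 on the log2 scale.

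When IL-6 was added to IL-4, 10 of these 14 genes fell and 1 rose, where 18.7% of all tested genes fell and 20.7% rose, with a median of -0.85 against 0.04 for all tested genes. There were 11 falls and 1 rise without IL-4/IL-6 replicate 2, and 8 to 11 falls with single libraries left out. The furthest falls were those of Anxa1 (-1.38 ± 0.10 SE), coding for annexin A1, Cd36 (-1.34 ± 0.06 SE), a class B scavenger receptor, Stab2 (-1.14 ± 0.27 SE) and Cd300lb (-1.01 ± 0.05 SE). Added to IL-13, IL-6 lowered 6 and raised 3 of the 14, with none past a log2 change of 1 (median -0.33). The responses to IL-6 differed for 8 of the 14, all lower beside IL-4 (median difference -0.54), where 4.42% of all tested genes were lower and 3.22% higher in this test. Without IL-13 replicate 3 this count was 5.

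The engulfment machinery, which turns receptor signals into actin-driven uptake, had 16 of 17 genes tested. It gave 6 rises and 5 falls with IL-4, 7 and 4 with IL-13, 4 and 5 with IL-6 on top of IL-4 and 4 and 3 with IL-6 on top of IL-13, with medians between 0.03 and 0.08. Among all tested genes, 32.1% rose and 35.9% fell with IL-4, 29.0% and 31.1% with IL-13, 20.7% and 18.7% with IL-6 on top of IL-4, and 12.1% and 13.5% with IL-6 on top of IL-13. The kinase gene Src fell with IL-4 (-2.44 ± 0.19 SE) and IL-13 (-2.41 ± 0.19 SE), and the focal adhesion kinase gene Ptk2 rose (1.74 ± 0.09 and 1.96 ± 0.09 SE). Elmo2 (-1.22 ± 0.08 SE) and Dock2 (-1.18 ± 0.10 SE), coding for partners in activation of RAC, fell with IL-6 on top of IL-4.

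Of 13 genes of corpse digestion, IL-4 raised 2 and lowered 8 (median -0.43), where 35.9% of all tested genes fell, and IL-13 raised 1 and lowered 7 (-0.20), where 31.1% fell. IL-6 raised 4 and lowered 3 on top of IL-4, where 20.7% of all tested genes rose, and raised 3 and lowered 2 on top of IL-13, where 12.1% rose. The 4 rises on top of IL-4 were 2 without IL-4 replicate 2 or 3 or IL-4/IL-6 replicate 3, and the 3 on top of IL-13 were 1 without IL-13 replicate 2 or any IL-13/IL-6 library, while the single rise with IL-13 became 3 without IL-4/IL-6 replicate 2. A single gene passed a log2 change of 1 in these 4 comparisons, Cybb, the catalytic subunit of the phagocyte NADPH oxidase. Cybb fell in each, by -2.26 ± 0.11 SE with IL-4, -1.69 ± 0.11 SE with IL-13, and -2.16 ± 0.11 and -1.18 ± 0.10 SE with IL-6 on top of them. Its levels followed those of Axl, as given below.

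All 8 lipid sensors and cholesterol efflux genes, which handle the lipid load of an engulfed cell, were tested. IL-4 raised 1 and lowered 5 (median -1.23), and IL-13 raised 1 and lowered 6 (-1.01), beside 35.9% and 31.1% of all tested genes that fell. Adding IL-6 raised 2 and lowered 5 beside IL-4 (-0.86), and raised 2 and lowered 4 beside IL-13 (-0.51), beside 18.7% and 13.5% that fell. Abca1, the transporter that exports cholesterol, was at a mean of 199.5 normalized CPM in control, 20.0 in IL-4, 4.97 in IL-4/IL-6, 36.6 in IL-13 and 12.6 in IL-13/IL-6. The LXR-alpha gene Nr1h3 fell with IL-4 (-1.34 ± 0.12 SE), with IL-13 (-1.13 ± 0.12 SE) and again with IL-6 on top of IL-4 (-1.37 ± 0.13 SE), as did Pparg in the last comparison (-1.35 ± 0.08 SE). Against control, Nr1h3 was lower in IL-13/IL-6 too (-2.03 ± 0.12 SE). Ppard fell with IL-4 (-2.76 ± 0.13 SE) and IL-13 (-2.41 ± 0.12 SE) and rose when IL-6 was added to each (1.78 ± 0.13 and 1.03 ± 0.13 SE). Rxra fell with IL-4 (-1.45 ± 0.08 SE) and IL-13 (-1.25 ± 0.08 SE), and Abcg1 fell with IL-6 on top of IL-13 (-1.38 ± 0.12 SE).

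Of 18 other scavenger receptors, of which Cd36, Lrp1 and Stab2 are also in the list of receptors of apoptotic cells, 15 passed the filter, and Megf10, Ssc5d and Ager among them had so few reads in one of the groups compared that they are given as reads only. Of the other 12, IL-4 raised 4 and lowered 8 (median -0.52), and IL-13 raised 4 and lowered 6 (-0.25). IL-6 raised 2 and lowered 7 on top of IL-4 (-0.33), and raised 1 and lowered 2 on top of IL-13 (-0.21). The 2 rises on top of IL-4 became 1 whichever single library was left out, and the 2 falls on top of IL-13 were 4 without IL-4/IL-6 replicate 2. Of all tested genes 35.9%, 31.1%, 18.7% and 13.5% fell in these comparisons, in that order. Cd5l, a secreted scavenger protein of macrophages, rose with IL-6 in both settings (1.09 ± 0.10 and 2.25 ± 0.10 SE). Cxcl16, a membrane-bound chemokine that binds oxidized lipoprotein, fell with IL-4 (-2.59 ± 0.15 SE). Megf10 had at most 63 reads in a control library and at most 8 in any treated one, Ssc5d at most 8 in control and 81 in IL-4, and Ager at most 40 in control and 13 elsewhere, so that no fold change is given for them.

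The 4 genes of shedding were Adam10, Adam17 and the regulators of ADAM17, Rhbdf1 and Rhbdf2. The proteases of Adam10 and Adam17 cut MERTK, AXL and CD163 from the cell surface. These 4 genes had 3 falls and no rise with IL-4 and 4 falls with IL-13, where 35.9% and 31.1% of all tested genes fell. Past a log2 change of 1 were only the falls of Adam17 with IL-4 (-1.04 ± 0.06 SE) and of Rhbdf1 with IL-13 (-1.26 ± 0.33 SE). IL-6 lowered 2 on top of IL-4 and 1 on top of IL-13 and raised none, where 18.7% and 13.5% of all tested genes fell.

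**Figure D5:**
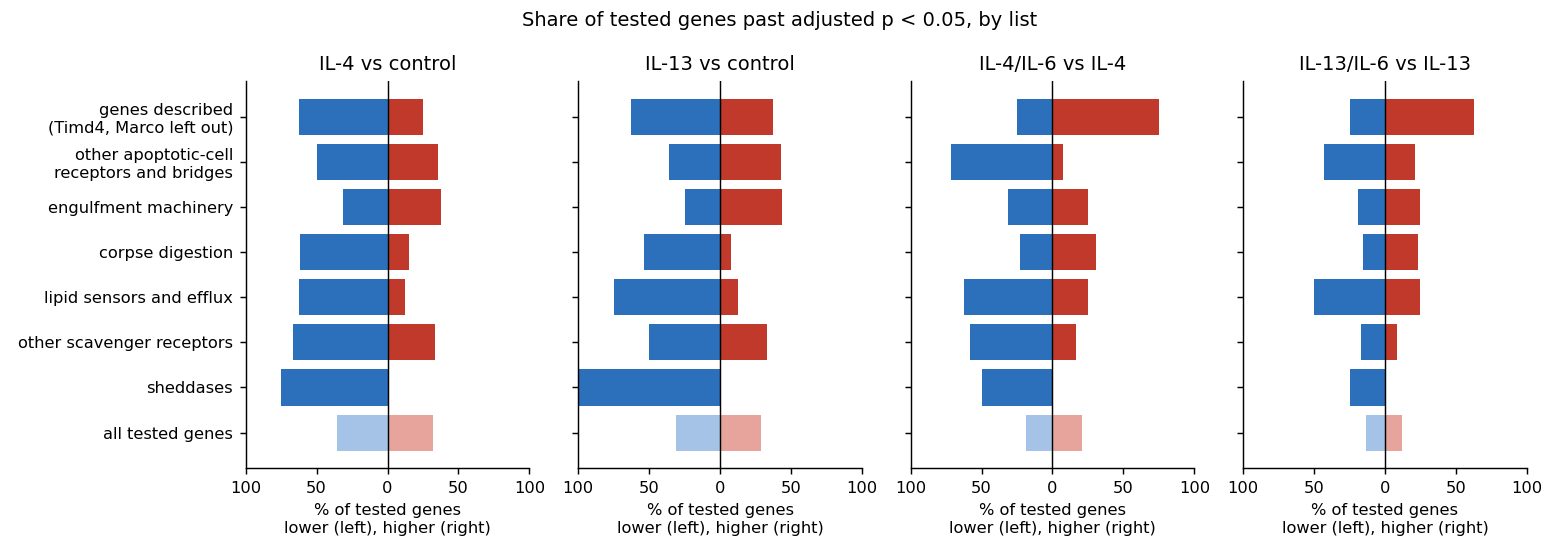
Share of tested genes in each list (y axis) that were lower (left, blue) or higher (right, red) at an edgeR adjusted p under 0.05, in percent (x axis), in 4 comparisons, with all 13938 tested genes at the bottom. Timd4 and Marco are left out of the top bar, and Megf10, Ssc5d and Ager of the other scavenger receptors. With IL-6 on top of IL-4, 6 of the 8 genes described here rose while 10 of 14 other receptors and bridging proteins of apoptotic cells fell.

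For each tested gene, the 2 genes with the most similar pattern of log2 CPM over the 15 libraries were found among all tested genes. These were Dmxl2 and Tnfrsf14 for Mertk (Pearson's r = 0.992 and 0.990), Ly9 and Cybb for Axl (0.994 and 0.991), Pld3 and Cyp4f18 for Mfge8 (0.993 and 0.992) and Ggta1 and Nisch for Stab1 (0.987 and 0.983). The values for the ligands were lower, with Prkacb and Sh3bp5 for Gas6 (0.970 and 0.968) and Canx and Slc35f5 for Pros1 (0.971 and 0.966). Mtmr10 and Pvr were nearest to Cd163 (0.988 and 0.983), Clptm1 and Igfbp4 to Msr1 (0.975 and 0.973) and Sp140 and Aatk to Marco (0.977 in both cases). The 15 points are 5 groups of 3 libraries and share depth and scaling, so that r mostly reflects the group means and is a description only.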

How the data were processed

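Total RNA of 15 BMDM libraries was sequenced on an Illumina instrument. The authors deposited raw read counts per gene in 1 matrix and FPKM values per library. Their methods name no aligner or strand setting. The mouse line named for BMDM differentiation is not reported here. The submitters' processing notes list CASAVA, Bowtie2 2.2.3, HISAT2 2.1.0, TopHat2, DESeq2 and GRCm38 without roles. The deposited FPKM values were whole counts scaled by library and gene length, since the lengths they imply differed between libraries by a relative 7.35e-07 at most over 268061 values. FPKM served only to compare levels between genes. No column of the authors' own comparisons was used.

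Counts were fitted with edgeR 4.0.16 in R 4.3.3 (TMM scaling, filterByExpr with a minimum count of 10, quasi-likelihood F-test, 1 mean per group, all 15 libraries). The fit was tested on simulated data in which few genes changed, in 1 group only and balanced up and down. That setting does not cover comparisons in which many genes changed, as here. Calls used a Benjamini-Hochberg adjusted p under 0.05 over 13938 genes. Normalized CPM was computed from counts and TMM factors. Ratios of summed reads carry exact 95% intervals that cover counting error only. Alternatives were DESeq2 1.42.0, upper-quartile scaling, library totals, no filter, a minimum count of 30, only the groups compared, a replicate block, and leaving out each library. Leaving out single libraries for the gene lists, and Megf10, Ssc5d and Ager from the list of other scavenger receptors, was chosen after seeing the data.

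The 10 genes and the gene lists were chosen with earlier results of these data known. All 10 genes were named in every comparison. Of each list, called genes past a log2 fold change of 1 were named, at most 4 per list and comparison, largest first, and low-count genes among them are given as reads. For each tested gene the 2 genes with the highest Pearson's r over log2 CPM were named.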

Additional observations from a re-analysis of the deposited data

Results flagged for a closer look

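For 5 of the 8 genes without Timd4 and Marco, the response to IL-6 differed between the IL-4 and the IL-13 setting, by a test of the difference itself (the interaction term of the edgeR fit, adjusted over all tested genes), where 3.22% of all tested genes were higher and 4.42% lower. The log2 fold change with IL-6 beside IL-4 minus that beside IL-13 was 2.09 for Cd163, 0.66 for Gas6, -1.07 for Axl, -0.61 for Msr1 and -0.44 for Pros1. Each of these 5 genes moved in the same direction in both settings, in 3 of 3 libraries against 3 of 3. The call of Pros1 was lost without any of 7 single libraries (edgeR adjusted p = 0.0533 to 0.0758) and with only the groups compared (0.0527). The doses of IL-4 and IL-13 differed, so that cytokine and dose cannot be told apart here.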

How the results depend on the processing

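Of 72 comparisons of single genes, with Timd4 and Marco left out, 60 kept their direction and their side of the threshold in all 22 alternatives. Gas6 in IL-4 against control was 0.017 with upper-quartile scaling, 0.077 with no filter, 0.016 with a minimum count of 30, 0.039 with only the groups compared, and -0.034 to 0.064 when single libraries were left out. Stab1 in IL-13/IL-6 against control was 0.053 with no filter and -0.048 to 0.045 with single libraries left out, and Pros1 in IL-4 against IL-13 was -0.029 to 0.12. None of these 3 was called in any setting. Between IL-4/IL-6 and IL-13/IL-6, 4 of the 8 genes instead of 7 were lower with only the groups compared, where the calls of Mertk (adjusted p = 0.0555), Mfge8 (0.0541) and Stab1 (0.120) were lost, and 4 to 7 when single libraries were left out (4 without IL-13/IL-6 replicate 3). Over all genes that comparison gave 2900 calls with only the groups compared, against 4368, and IL-4 against IL-13 gave 1088 without IL-13 replicate 3 and 2915 without IL-13 replicate 1, against 1779. Scaling to library totals moved the median of all genes in IL-4/IL-6 against control by -0.15.

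Replicate numbers did not pair the libraries. Deviations of same-numbered libraries correlated by -0.28 to 0.16 over 30 pairs of libraries, with 3 over 0.1, and 2 of 15 libraries correlated best with their own number. With the replicate as a block, the rise of Marco with IL-6 on top of IL-13 (1.08) had an edgeR adjusted p of 0.0554. No other call among the genes described here changed with this block. The call of Marco was also lost with DESeq2 (adjusted p = 0.0576) and with no filter (0.0724). Depth limits Timd4 and Marco, which had few reads in the treated libraries.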
